A study of Mus musculus with 31 samples.

Results

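Aldosterone-regulated sodium uptake in the distal colon was followed through 7 genes of the mouse: Nr3c2, Hsd11b2, Sgk1, Scnn1a, Scnn1b, Scnn1g and Cldn8. The genes were chosen by name, as every array feature (probe) whose gene name is one of these 7, which gave 11 of the 56605 probes of the array. Of these, 10 probes passed the filter on low signals and stood for 7 of the 19797 genes tested. The remaining probe, for a long transcript of Sgk1, was well above background on 0 of the 31 arrays and is not used.

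The gene expression values came from the distal colon, labelled as colon, of BALB/c mice that had all received azoxymethane (AOM), which induces tumours, and dextran sodium sulphate (DSS), which inflames the colon, so no group was free of either agent. CRC mice were gavaged with water, the vehicle, and CRC + E171 mice with 5 mg/kg bw/day of E171, the food-grade form of titanium dioxide. RNA was taken after 2, 7, 14 and 21 days, each group held 4 arrays (2 males and 2 females) except CRC after 21 days with 3 arrays. The study's methods give these as mice sampled at each time, so that each array is taken as 1 mouse. The question addressed was whether the genes that let the distal colon take up sodium differed between exposed and time-matched control mice, and how they varied between days and arrays.

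Aldosterone, the adrenal hormone of salt retention, enters surface cells of the distal colon and binds the mineralocorticoid receptor, a nuclear receptor encoded by Nr3c2. The enzyme of Hsd11b2 inactivates glucocorticoids in the same cells and so keeps that receptor available for aldosterone, while the kinase of Sgk1, itself induced by steroid hormones, keeps the epithelial sodium channel in the apical membrane. The channel is built from the alpha, beta and gamma subunits of Scnn1a, Scnn1b and Scnn1g, and in the colon the beta and gamma subunits are the ones known to be induced by the hormone. Claudin-8, encoded by Cldn8, seals the tight junction against back-leak of the sodium that was taken up. These roles are background and were not measured here.

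The probes of Nr3c2 and Hsd11b2 are printed because these genes were up-regulated after 7 days and had their lowest values on the neutrophil-rich arrays, and the Scnn1b probe because it was the only channel probe called after 14 days. All 3 probes lie in coding sequence, and their coordinates are of the build mm9 as the array files give them. The Nr3c2 probe covers chr8:79432389-79432448, the Hsd11b2 probe spans chr8:108046785-108047002 across a splice junction, and the Scnn1b probe covers chr7:129042869-129042928.
Nr3c2: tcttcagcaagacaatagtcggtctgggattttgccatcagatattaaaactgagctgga
Hsd11b2: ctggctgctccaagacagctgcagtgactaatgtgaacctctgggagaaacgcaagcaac
Scnn1b: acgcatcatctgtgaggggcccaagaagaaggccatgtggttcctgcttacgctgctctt
Nr3c2 had another pair of probes, at chr8:79768704-79768763 and chr8:79766784-79766843, and its level is the mean of the 3. Scnn1a was the mean of 2 probes at chr6:125294843-125294902 and chr6:125293939-125293998. The probes of Scnn1g at chr7:128911434-128911493, Cldn8 at chr16:88561135-88561194 and Sgk1 at chr10:21719390-21719449 stood alone for their genes.

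The RefSeq promoter table, of the build GRCm38.p6, held 9 promoters for 4 of the genes, namely 6 for Sgk1 and 1 each for Scnn1b, Scnn1g and Nr3c2. Scnn1a, Cldn8 and Hsd11b2 were matched to no entry. Searched on both strands over the 250 bases before the start, the palindrome AGNACANNNTGTNCT bound by steroid receptors was found in 1 of the 9 promoters, that of Sgk1 at chr10:21993640-21993889 on the plus strand, and in 0.0609% of 32851 promoters of that length. The sequence is shown because Sgk1 was the gene called between 21 and 2 days of CRC + E171, with the palindrome and an E-box, CACGTG, in capitals.
Sgk1: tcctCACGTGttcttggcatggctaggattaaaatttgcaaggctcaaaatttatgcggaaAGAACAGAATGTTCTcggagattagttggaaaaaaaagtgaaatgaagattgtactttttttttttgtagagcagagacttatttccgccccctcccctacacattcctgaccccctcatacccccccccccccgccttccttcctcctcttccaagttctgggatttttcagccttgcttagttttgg
The palindrome starts at position -189 from the start site and the E-box, a motif of clock proteins that is present in 6.02% of all promoters, at -246. The hexamer AGAACA of the same receptors, present in 16.1% of all promoters, starts at -242, where it overlaps the E-box, and at -189 and -180, where it forms the arms of the palindrome. Beyond this promoter, the hexamer was present in a further pair of Sgk1 promoters at -195 and -13. The D-box TTANGTAA, another clock motif, was in none of the 9 promoters and in 2.06% of all. These are matches of letters in a window and were not tested for binding.

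A level is the log2 of a gene's signal over the 75th percentile of its array, so that 0 is a signal equal to that percentile, and levels were compared between arrays and never between genes. Between 67.4% and 78.9% of the spots of an array were well above background. Both Scnn1g and Nr3c2 had values that were not well above background: Scnn1g at -7.09 on CRC 7 days male 2 and at -5.91 on CRC + E171 7 days female 2, and 1 of the Nr3c2 probes at -6.36 on CRC 7 days male 1.

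Some arrays stood apart from the others by marker genes, and Nr3c2, Hsd11b2, Cldn8, Scnn1a and Scnn1g were low on some of these arrays, while Sgk1 lay within the range of the others on the neutrophil-rich ones. On 3 arrays, all labelled male, the median level of 6 neutrophil markers was 4.40 (CRC 7 days male 1), 4.14 (CRC 7 days male 2) and 3.12 (CRC + E171 14 days male 2), against -4.41 to 0.64 on the 28 other arrays. The median of 6 surface colonocyte markers was -3.74, -2.25 and -2.03 on the same arrays and 2.98 to 4.49 elsewhere, the median of 8 colon epithelium markers was 2.14 to 4.36 against 5.22 to 6.15, and the median of 6 goblet cell markers was -0.97 to 2.03 against 5.49 to 7.16. CRC 7 days male 1 also carried skeletal muscle markers at 6.30 and squamous epithelium markers at 6.65, and CRC 7 days male 2 carried pancreatic acinar markers at 6.08. Of the neutrophil markers, Csf3r was at 5.01 to 6.19 on every array and Cxcr2 was well above background on 14 arrays. In bulk samples, fewer cells of a type and less RNA per cell cannot be told apart.

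A further 3 arrays, all labelled female and CRC + E171, had a low median of 6 posterior Hox genes, which mark the hindgut end of the body axis: -6.01 (7 days female 2), -5.34 (14 days female 1) and -5.49 (14 days female 2), against -2.19 to 0.88 on the 28 others. Their colon epithelium markers lay at 5.41 to 6.15, and kidney tubule markers lay at -8.00 to -5.29 over the 31 arrays. The array labelled male 2 of CRC 14 days carried the female transcript Xist at -1.60, as females did (-2.34 to -0.70), whereas the other males lay at -8.51 to -6.53. Scnn1a lay at -1.17 to 0.83 on the neutrophil-rich arrays and at 0.13 to 0.74 on those with low posterior Hox genes, below the 0.94 to 1.86 of the 25 arrays in neither set. Scnn1g lay at -7.09 to -2.90 and at -5.91 to -2.83 on the same sets, against -4.23 to 2.53 on the 25.

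On 6 of these 25 arrays the markers of another tissue were above 2. The median of squamous epithelium markers was 5.60 on CRC 21 days female 1 and 2.83 on CRC + E171 21 days female 1. The median of pancreatic acinar markers was 7.93 on CRC + E171 21 days female 2, 7.79 on CRC + E171 2 days female 2, 4.74 on CRC 7 days female 1 and 3.51 on CRC 2 days male 2. The calls of the members, and the counts of the related lists where the arrays of the first 2 sets change them most, are also given without the arrays that stand apart, as alternatives added after the data were seen.

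The mineralocorticoid receptor gene Nr3c2 had the narrowest range of the members outside the neutrophil-rich arrays. It lay at -3.98, -3.64 and -2.60 on those 3 arrays and at -0.85 to 0.52 on the 28 others, so that the sets did not overlap. By group, its mean was -0.37 ± 0.42 (SD, n = 4) in CRC after 2 days, -2.01 ± 2.08 (n = 4) after 7 days, -0.59 ± 0.45 (n = 4) after 14 days and -0.10 ± 0.12 (n = 3) after 21 days. In CRC + E171, with n = 4 each, the means were -0.01 ± 0.46, -0.03 ± 0.23, -0.56 ± 1.37 and 0.10 ± 0.26 in the same order of days. The 3 probes moved together over the 31 arrays, with Pearson's r of 0.87, 0.92 and 0.92.

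Hsd11b2, which guards the receptor, showed the same 3 low arrays, at -5.60, -5.13 and -3.43 against -0.77 to 1.32 elsewhere. Its means in CRC were 0.66 ± 0.29 (SD, n = 4), -2.10 ± 3.78 (n = 4), 0.20 ± 0.22 (n = 4) and 0.49 ± 0.43 (n = 3) after 2, 7, 14 and 21 days. In CRC + E171 they were 0.17 ± 0.22, 0.34 ± 0.87, -0.85 ± 1.85 and 0.85 ± 0.16, with n = 4 each. The SD of 3.78 in CRC after 7 days reflects 2 females at 1.32 and 1.02 and 2 males at -5.60 and -5.13.

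Sgk1, the hormone-induced kinase, ranged from 2.34 to 5.64 over the 31 arrays and lay at 2.44 to 3.05 on the neutrophil-rich arrays, within the range of the others. In CRC its means were 3.16 ± 0.18 (SD, n = 4), 3.72 ± 0.92 (n = 4), 3.47 ± 0.51 (n = 4) and 3.85 ± 0.49 (n = 3) after 2, 7, 14 and 21 days. In CRC + E171 they were 2.92 ± 0.50, 3.44 ± 0.81, 3.98 ± 1.34 and 4.39 ± 0.39, with n = 4 each. The highest value of the series, 5.64, was on CRC + E171 14 days female 1, 1 of the arrays with low posterior Hox genes, on which Sgk1 lay at 4.10 to 5.64.

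Scnn1a, the alpha subunit, which the colon expresses without the hormone, had means of 1.51 ± 0.14 (SD, n = 4), 0.59 ± 1.25 (n = 4), 1.09 ± 0.21 (n = 4) and 1.58 ± 0.25 (n = 3) in CRC after 2, 7, 14 and 21 days. In CRC + E171 they were 1.49 ± 0.20, 1.16 ± 0.35, 0.74 ± 0.53 and 1.29 ± 0.15, with n = 4 each. Its lowest value, -1.17, was on CRC 7 days male 2. Of the 4 arrays of CRC + E171 after 14 days, 3 belong to the sets that stand apart, at 0.13, 0.83 and 0.61, and male 1 was at 1.40. The 2 probes of Scnn1a did not move together (r of 0.30 over 31 arrays): one ranged from -0.81 to 3.69 and the other from -1.53 to 0.34, so that the gene's level is an average of unlike readings.

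Scnn1b, the beta subunit, varied least over the groups when all 31 arrays were used. Its means lay between -4.80 ± 0.13 (SD, n = 4) in CRC after 14 days and -3.88 ± 0.63 (n = 4) in CRC + E171 after 14 days. Over the 25 arrays in neither set it spanned 2.07-fold, and Scnn1a (1.41-fold), Nr3c2 (1.61-fold) and Hsd11b2 (2-fold) spanned less. Its level rests on 1 probe of low signal, with a median of -4.48, which was well above background on all 31 arrays. The means of CRC were -4.62 ± 0.28, -4.41 ± 1.29 and -4.14 ± 0.54 after 2, 7 and 21 days, and those of CRC + E171 were -4.78 ± 0.29, -4.55 ± 0.21 and -4.11 ± 0.59. Its lowest array was CRC 7 days male 2 at -6.28.

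Scnn1g, the gamma subunit, varied most. In CRC its means were -2.22 ± 0.35 (SD, n = 4), -2.20 ± 3.72 (n = 4), -1.37 ± 1.17 (n = 4) and 0.49 ± 0.40 (n = 3) after 2, 7, 14 and 21 days, and in CRC + E171 they were -1.96 ± 1.80, -2.89 ± 2.24, -3.24 ± 2.42 and 0.72 ± 1.23, with n = 4 each. Its lowest value, -7.09, and its highest, 2.53, were on CRC 7 days male 2 and CRC + E171 21 days female 1.

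Cldn8, the sodium-sealing claudin, lay at 0.89 to 3.23 on the 25 arrays that belonged to neither set. On the neutrophil-rich arrays it was at -3.31, 0.30 and -1.85, and on those with low posterior Hox genes at 0.91, -2.70 and 0.81. The means in CRC were 2.21 ± 0.45 (SD, n = 4), 0.16 ± 2.44 (n = 4), 2.22 ± 0.31 (n = 4) and 1.38 ± 0.46 (n = 3) after 2, 7, 14 and 21 days. In CRC + E171 they were 2.60 ± 0.38, 2.31 ± 1.04, -0.24 ± 2.50 and 1.31 ± 0.40, with n = 4 each.

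**Figure D1:**
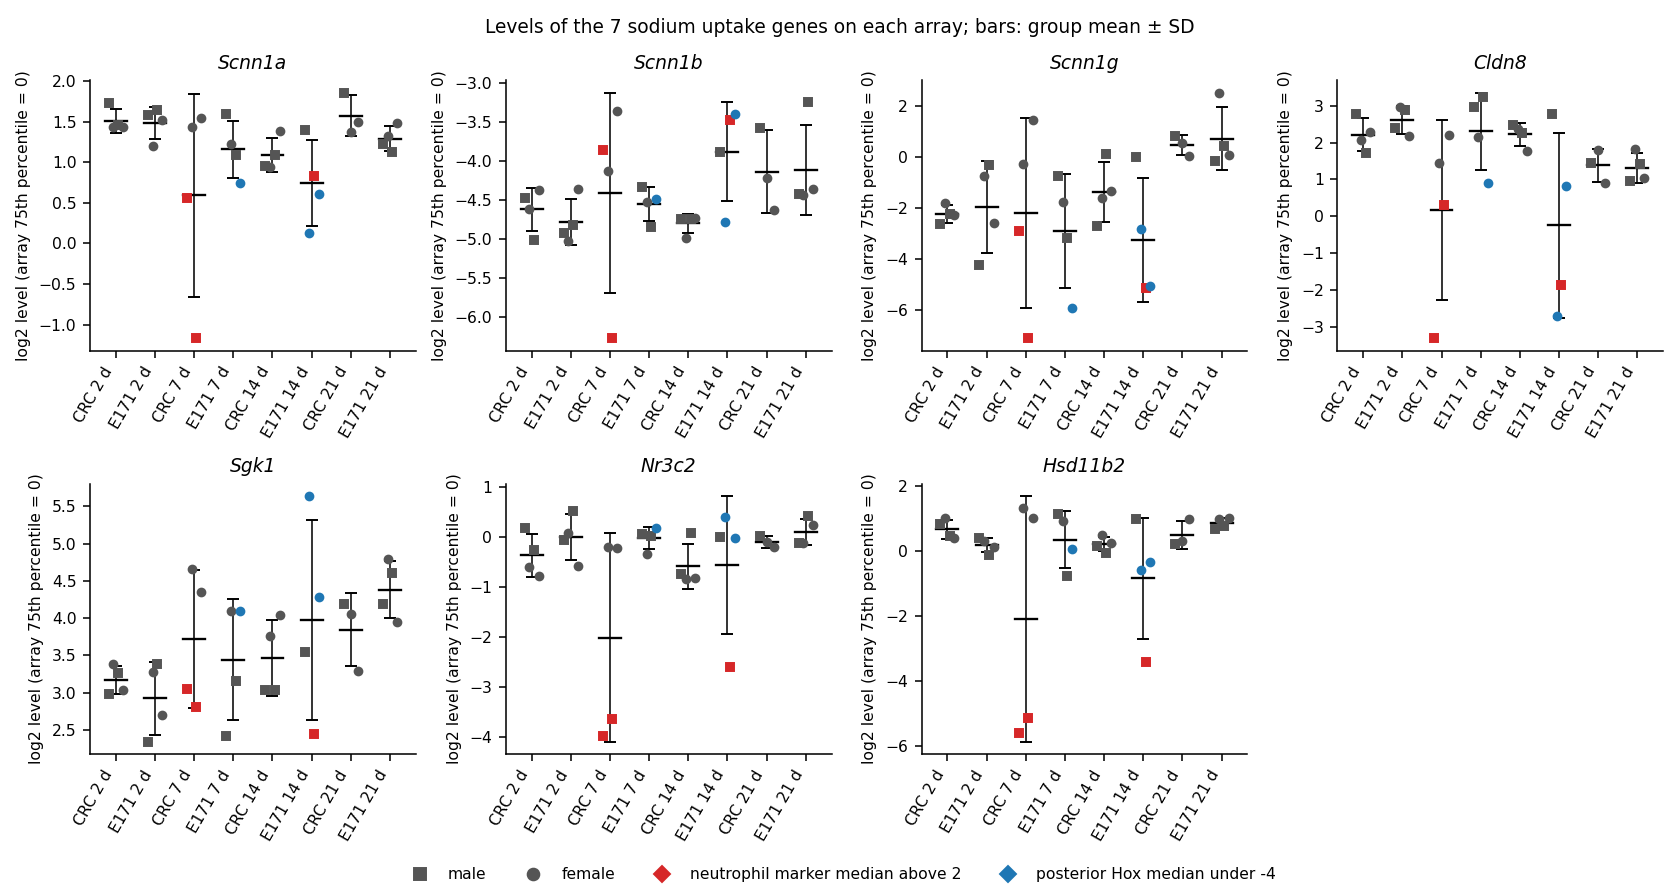
Level of each of the 7 genes on the 31 arrays (y axis, log2 over the array's 75th percentile; x axis, the 8 groups by day), with the group mean and SD as bars and the arrays that stand apart by marker genes drawn in colour. Nr3c2 and Hsd11b2 fall below -2 only on the 3 neutrophil-rich arrays, and Scnn1g lies between -0.14 and 2.53 on the 7 arrays of 21 days.

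When the 8 groups were ordered by their means, all 7 pairs of neighbours overlapped in their values, for every one of the 7 genes. The distance between the highest and the lowest group was widest for Scnn1g, where CRC + E171 after 21 days stood 15.6-fold above CRC + E171 after 14 days. It was 7.73-fold for Hsd11b2 and 4.32-fold for Nr3c2, with CRC + E171 after 21 days highest and CRC after 7 days lowest for both. For Cldn8 it was 7.16-fold, between CRC + E171 after 2 days and after 14 days. Sgk1 (2.77-fold), Scnn1a (1.99-fold) and Scnn1b (1.89-fold) had the narrower spans. These orders rest in part on the arrays that stand apart. Scnn1g after 14 days of CRC + E171 was at -2.83, -5.12 and -5.04 on such arrays and at 0.01 on male 1. The low mean of CRC after 7 days in Hsd11b2 and Nr3c2 comes from the 2 neutrophil-rich males, while both females, at 1.32 and 1.02 for Hsd11b2, were above the 0.85 of CRC + E171 after 21 days. Over the 25 arrays in neither set the span was 7.67-fold for Scnn1g, from CRC after 2 days to CRC + E171 after 21 days, and 2.77-fold for Cldn8, from CRC + E171 after 21 days to CRC + E171 after 7 days. For Hsd11b2 it was then 2.0-fold, with CRC after 7 days highest and CRC + E171 after 2 days lowest, and for Nr3c2 1.61-fold, with CRC after 14 days lowest. Sgk1 spanned 2.99-fold, Scnn1b 2.07-fold and Scnn1a 1.41-fold.

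Each exposed group was compared with its time-matched control in limma, and a gene was called a DEG at a fold change of 1.5 on the linear scale with an unadjusted p under 0.05. The sources write the study's fold threshold both as a fold change and as a log2 fold change, and the linear reading was used throughout. With 1.5 taken as a log2 value, Scnn1b after 14 days (0.92) and Sgk1 between 21 and 2 days (1.46) would not be called, whereas the differences of Nr3c2, Hsd11b2 and Cldn8 called after 7 and 14 days exceed it. The calls of Scnn1a between 7 and 2 days of CRC (-0.92), of Scnn1b (0.90) and Sgk1 (1.05) between 14 and 2 days of CRC + E171, and of Sgk1 (-0.73) and Hsd11b2 (-1.13) between the sexes would be lost as well. No member reached a Benjamini-Hochberg adjusted p of 0.05 on any day over the 31 arrays. Over all genes, adjusted calls made up 0% on each of the 4 days (the smallest adjusted p in limma were 0.9992, 0.188, 0.4372 and 0.6393), while 541, 3327, 1580 and 1149 genes had an unadjusted p under 0.05.

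After 2 days, 0 of the 7 genes were called, against 1.72% of all genes. Their median difference was -0.02 on the log2 scale, and 0.06 over all genes. The levels of Hsd11b2 were 0.38, 0.30, -0.12 and 0.13 in CRC + E171 and 0.82, 1.0, 0.44 and 0.40 in CRC, so that every exposed array was below every control. This was the only one of the 28 comparisons of a gene on a day without overlap, where 3.91% of all genes on that day had none, and its difference of -0.49 gave an exact two-sided permutation p of 0.02857, the smallest that 4 against 4 arrays allow. It was 1 of 28 such tests, and in limma, which pools the spread of the 8 groups, its p was 0.6447 (adjusted p 0.9992).

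After 7 days, 3 of the 7 genes were up-regulated in CRC + E171 and none was down-regulated, against 12.4% of all genes called in either direction. The median difference was 0.57 for the members and -0.01 for all genes. Nr3c2 lay at 0.06, -0.35, 0.02 and 0.17 in CRC + E171 and at -3.98, -0.21, -3.64 and -0.22 in CRC, in the order male 1, female 1, male 2 and female 2. Both control males were far below every other array, and the control females lay within the range of the exposed mice. The difference of 1.99 ± 0.65 (SE), 3.96-fold, had p = 0.005052 and an adjusted p of 0.1974 in limma, and an exact permutation p of 0.08571. The differences of its 3 probes were 2.46, 1.71 and 1.79, the first of them on a probe that was not well above background on 1 of the 4 control arrays.

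Hsd11b2 was at 1.14, 0.92, -0.77 and 0.05 in CRC + E171 and at -5.60, 1.32, -5.13 and 1.02 in CRC on the same day, in the same order. The difference of 2.43 ± 1.06, 5.40-fold, had p = 0.03039 and an adjusted p of 0.2562 in limma (exact permutation p 0.4). Here the 2 control females were above 3 of the 4 exposed arrays. Cldn8 was at 2.97, 2.14, 3.23 and 0.91 in CRC + E171 and at -3.31, 1.44, 0.30 and 2.21 in CRC, a difference of 2.15 ± 0.92, 4.45-fold, with p = 0.02702 and an adjusted p of 0.2484 in limma (exact permutation p 0.1429). Again the lowest 2 values belonged to the control males. The groups overlapped for all 7 genes after 7 days, where 4.85% of all genes did not overlap.

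The 2 control males of 7 days were the arrays with neutrophil markers at 4.40 and 4.14 and surface colonocyte markers at -3.74 and -2.25. Without the 3 neutrophil-rich arrays, which leaves 2 females as controls after 7 days, the difference was 0.19 for Nr3c2 (limma p 0.523), 0.49 for Cldn8 (p 0.568) and -0.84 for Hsd11b2 (p 0.05276), and none of these was called. Then 3 of the channel and kinase genes were called as down-regulated, Scnn1g by -3.49 (p 0.0121), Scnn1b by -0.80 (p 0.0342) and Sgk1 by -1.06 (p 0.04), each with an adjusted p of 0.9995 in limma, where 2.65% of all genes were called. Here and without both sets, the controls of 7 days are all female and the exposed mice of both sexes. No term for sex was fitted, so that sex and exposure are not fully separated. Sgk1 was at 4.66 and 4.35 in the control females, 4.09 and 4.10 in the exposed females and 2.42 and 3.16 in the exposed males. The values of Scnn1g and Cldn8 in this fit include CRC + E171 7 days female 2, an array with low posterior Hox genes, at -5.91 for Scnn1g, not well above background, and at 0.91 for Cldn8. Without both sets Cldn8 was called, at 0.96 ± 0.38 (limma p 0.02106), while Nr3c2 (0.12, p 0.7031) and Hsd11b2 (-0.74, p 0.06895) were not. Scnn1g (-2.49, limma p 0.02335), Scnn1b (-0.83, p 0.0274) and Sgk1 (-1.28, p 0.007047) were also called in that fit, in which 2.77% of all genes were called and these members had an adjusted p of 0.9994. Without the 6 arrays with squamous or acinar markers, CRC 7 days female 1 among them, Nr3c2 (2.59), Hsd11b2 (3.57) and Cldn8 (2.58) were called, against 19.9% of all genes. Without all 12 arrays that stand apart, which leaves female 2 as the control and assumes that it varies like the other groups, none of these 3 was, while Scnn1b (-1.21, limma p 0.01058) and Scnn1g (-3.34, p 0.02507) were, with adjusted p of 0.5617 and 0.6556 and against 6.23% of all genes. Without CRC 7 days male 1 alone, the differences were 1.0 for Cldn8 and 1.27 for Hsd11b2, neither called, and without CRC 7 days male 2 alone Hsd11b2 differed by 1.42 and was not called while Scnn1b, at -0.77, was. Of the other arrays of that day, Cldn8 was not called without CRC + E171 male 1 (1.94) or male 2 (1.85), Hsd11b2 was not called without male 1 (2.17) or female 1 (2.24) of CRC + E171, and Scnn1a was called without either control female (0.85 and 0.89). Without CRC 7 days female 1, Nr3c2 (2.59) and Hsd11b2 (3.57) had adjusted p of 0.0279 and 0.03749 in limma, where 6.04% of all genes had one under 0.05. Without CRC 7 days female 2, Nr3c2 (2.58) also had one under 0.05 and Hsd11b2 (3.47) did not, against 2.69% of all genes. The part of the other cell types in these differences was not tested.

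**Figure D2:**
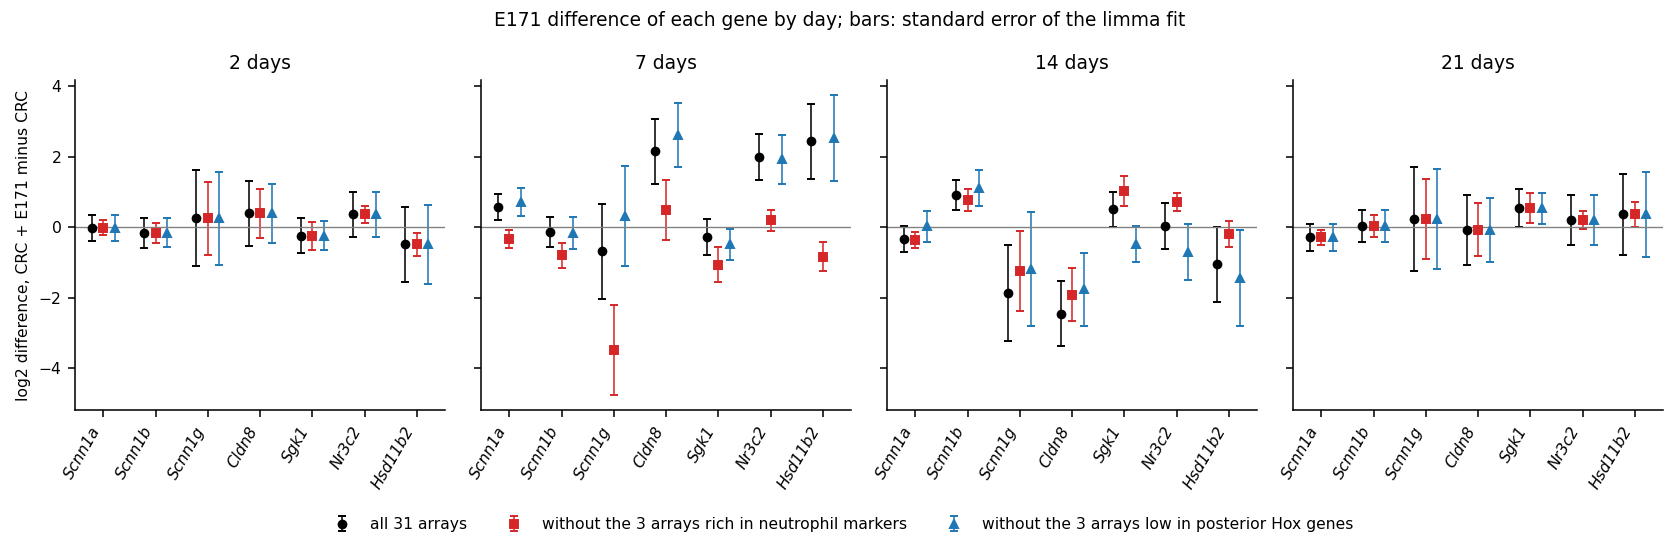
Difference between CRC + E171 and CRC on each day for the 7 genes (y axis, log2 difference with its standard error from limma; x axis, genes; 1 panel per day), over all 31 arrays in black, without the 3 neutrophil-rich arrays in red and without the 3 arrays with low posterior Hox genes in blue. After 7 days Nr3c2, Cldn8 and Hsd11b2 lie at 1.99 to 2.43 in black and at -0.84 to 0.49 in red, and Cldn8 lies at -2.46 in black after 14 days.

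After 14 days, Scnn1b was up-regulated and Cldn8 down-regulated, 2 of the 7 genes against 6.34% of all genes. The median difference was -0.34 for the members and 0.01 for all genes. Cldn8 was at 2.77, -2.70, -1.85 and 0.81 in CRC + E171 and at 2.48, 2.37, 2.25 and 1.78 in CRC, again in the order male 1, female 1, male 2 and female 2. The controls were close together, and the exposed mice ranged from above all of them to far below. The difference of -2.46 ± 0.92, 5.51-fold lower, had p = 0.01274 and an adjusted p of 0.5324 in limma (exact permutation p 0.1429).

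The levels of Scnn1b after 14 days were -3.89, -4.78, -3.47 and -3.39 in CRC + E171 and -4.75, -4.99, -4.74 and -4.73 in CRC. All exposed arrays except female 1 were above all controls. The difference of 0.92 ± 0.42, 1.89-fold, had p = 0.03704 and an adjusted p of 0.597 in limma (exact permutation p 0.1143). All 7 genes overlapped between the groups after 14 days, where 5.9% of all genes did not.

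The 3 low values of Cldn8 after 14 days were on arrays that stood apart by marker genes: female 1 and female 2 had posterior Hox genes at -5.34 and -5.49, and male 2 had neutrophil markers at 3.12. Leaving out the neutrophil-rich arrays, Cldn8 differed by -1.92 (limma p 0.01719), and leaving out those with low posterior Hox genes it differed by -1.76 and was not called (p 0.1029). Without both sets, exposed mice of 14 days are represented by male 1 alone, which is assumed to vary like the other groups, and Cldn8 differed by 0.55 (p 0.2535), Scnn1g by 1.38 and Hsd11b2 by 0.77. Scnn1b stayed called without both sets, at 0.91 (p 0.0446, adjusted p 0.4154 in limma). Nr3c2 (0.71, limma p 0.01072) and Sgk1 (1.02, p 0.02657) were called as well once the neutrophil-rich arrays were left out, where 14.1% of all genes were called. Without the 6 arrays with squamous or acinar markers, none of which is of 14 days, Cldn8 was called at the same -2.46 and Scnn1b, at 0.92, was not (limma p 0.05688, 6.45% of all genes called). Of single arrays, leaving out CRC + E171 14 days female 1 gave -1.64 for Cldn8, not called, and leaving out male 2 of that group gave -1.92 for Cldn8 and 0.78 for Scnn1b, neither called. Scnn1b was also not called without any one of the CRC 14 days arrays (0.85 to 0.94), CRC + E171 14 days male 1 (0.92) or female 2 (0.75), and Scnn1g was called at -2.96 without that male 1. The part of these arrays' tissue content was not tested.

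After 21 days, 0 of the 7 genes were called, against 2.67% of all genes, and the median difference was 0.20 for the members and 0.02 for all genes. The widest was Sgk1 at 0.54 ± 0.54 (limma p 0.3328, adjusted p 0.936), with 4.19, 4.80, 4.60 and 3.95 in CRC + E171 and 4.19, 4.06 and 3.29 in CRC. None of the 7 genes separated the groups, where 8.01% of all genes did. Averaged over the 4 days, 0 members were called against 1.79% of all genes, and 0.00505% of all genes, 1 gene that is no member, had an adjusted p under 0.05. The largest averaged difference was that of Nr3c2, 0.64 ± 0.33 (limma p 0.06186, adjusted p 0.5076). It was called, at 0.70 to 0.81, when 1 of 4 arrays was left out: CRC 7 days female 1 or female 2, CRC 14 days male 2 or CRC + E171 14 days male 2. It was also called, at 0.86 (limma p 0.03556), without the 6 arrays with squamous or acinar markers, against 2.89% of all genes.

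Whether the E171 difference itself changed between days was tested by a moderated F in limma. Cldn8 was called (F 4.3, p 0.01405, adjusted p 0.717), the only one of the 7 genes, against 6.52% of all genes at an unadjusted p under 0.05 and 0% at the adjusted one. Its differences were 0.39, 2.15, -2.46 and -0.07 after 2, 7, 14 and 21 days. For Hsd11b2 (F 2.08, p 0.1281) and Nr3c2 (F 1.93, p 0.15) the change between days was not shown. The F of Cldn8 was 2.23 without the neutrophil-rich arrays (limma p 0.1129), 1.47 without both sets (p 0.255) and 0.43 without all 12 arrays that stand apart (p 0.7347), and was called in none of these fits. Hsd11b2 was called without both sets (F 3.32, p 0.04142) and without the 6 arrays with squamous or acinar markers (F 3.56, p 0.03378), with adjusted p of 0.5052 and 0.4769 in limma, against 9.59% and 10.2% of all genes.

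Every CRC array lay in 1 column of its slide and every CRC + E171 array in another, so that exposure and slide column cannot be told apart. CRC and CRC + E171 of the same day never shared a slide, and the arrays were scanned on 3 scan days. Within the scan day on which 2 arrays of each group could be compared, the differences after 7 days were 3.5 for Cldn8, 1.95 for Nr3c2 and 3.17 for Hsd11b2, and those after 14 days were -2.95 for Cldn8 and 1.43 for Scnn1b. Of the 2 controls of 7 days, 1 was the neutrophil-rich male 1. Both exposed arrays of 14 days stood apart, male 2 as neutrophil-rich and female 2 by low posterior Hox genes. With scan day as a block Scnn1b after 14 days was 0.89 and not called (limma p 0.07062).

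**Figure D3:**
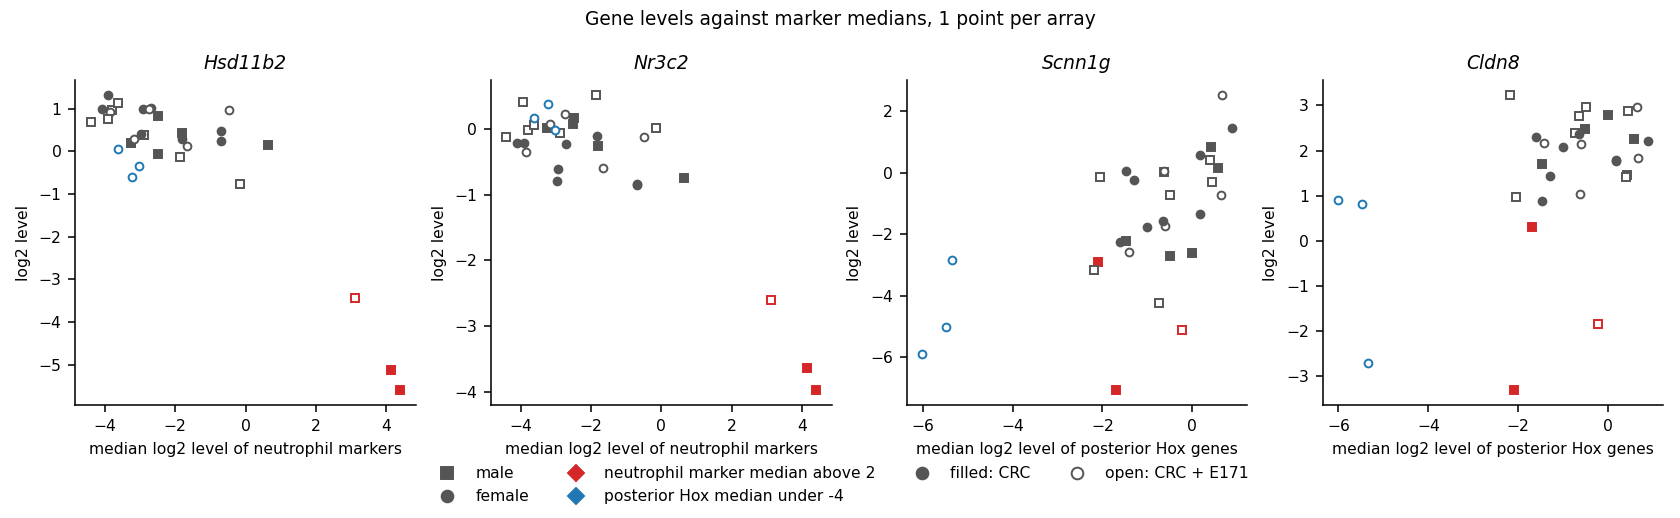
Levels of member genes (y axes, log2 over the array's 75th percentile) against the median level of neutrophil markers or posterior Hox genes on the same array (x axes, log2), with 1 point per array, filled for CRC and open for CRC + E171. The 3 arrays with neutrophil medians of 3.12 to 4.40 carry the lowest Nr3c2 and Hsd11b2, and the 3 arrays with posterior Hox medians of -6.01 to -5.34 carry Scnn1g at -5.91, -5.04 and -2.83.

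Within each exposure the days were compared with each other, which asks how the sodium uptake genes moved during tumour induction. In CRC, a moderated F over the 4 days in limma called 1 of the 7 genes, Nr3c2 (F 3.28, p 0.03716, adjusted p 0.4991), against 9.89% of all genes and 0% at an adjusted p under 0.05. After 7 days of CRC, Scnn1a, Cldn8, Nr3c2 and Hsd11b2 were lower than after 2 days by -0.92, -2.06, -1.64 and -2.76, so that 4 of the 7 genes were called against 13.4% of all genes. None of these 4 was called when only the arrays of both groups were fitted (limma p 0.09628 to 0.142, 5.22% of all genes called) or with array weights, which gave -0.17, -0.52, -0.10 and -0.03 in the same order (6.04% of all genes). Without the neutrophil-rich arrays Nr3c2 and Hsd11b2 differed by 0.16 and 0.51, in the other direction, and Scnn1a and Cldn8 by -0.02 and -0.39. None of these 4 genes was then called. Called as higher after 7 days were Scnn1b (0.87, limma p 0.02249), Scnn1g (2.82, p 0.0379) and Sgk1 (1.34, p 0.01171), with an adjusted p of 1 in limma and against 2.3% of all genes. That fit has no term for sex and sets 2 females of 7 days against both sexes after 2 days. Without the 6 arrays with squamous or acinar markers the 4 genes were called, at -1.22, -2.65, -2.2 and -3.97, against 20.3% of all genes, and without all 12 arrays that stand apart Scnn1b (1.13) and Scnn1g (3.67) were called in their place, against 5.22%. Without CRC 7 days male 1 alone, Cldn8 (-0.9), Nr3c2 (-0.98) and Hsd11b2 (-1.59) were not called. Without CRC 7 days male 2 alone, Scnn1a (-0.33), Nr3c2 (-1.1) and Hsd11b2 (-1.75) were not. Cldn8 was also not called without CRC 2 days male 1 (-1.87) or CRC 2 days female 2 (-2.03). Without CRC 7 days female 1, Scnn1a, Nr3c2 and Hsd11b2 differed by -1.2, -2.24 and -3.9 with adjusted p of 0.04727, 0.03428 and 0.02569 in limma, where 7.99% of all genes had one under 0.05. Without CRC 7 days female 2 only Hsd11b2 of the 4 did (-3.8, adjusted p 0.04638), against 3.07%. The call of Nr3c2 over the days was lost without any one of CRC 7 days male 1 (F 1.35), CRC 7 days male 2 (F 1.48), CRC 2 days male 1 (F 2.96), CRC 21 days male 1 (F 2.88) and CRC 21 days female 1 (F 2.95). After 14 and 21 days of CRC, 0 of the 7 genes were called against 2.55% and 3.59% of all genes. For 21 days the count was 1 with normexp (3.18% of all genes), 3 when only the groups compared were fitted (6.32%), 2 with array weights (9.87%), 1 without the neutrophil-rich arrays (5.82%), 2 without both sets (6.54%) and 2 without all 12 arrays that stand apart (4.75%).

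In CRC + E171, the F called 3 of the 7 genes against 14.6% of all genes: Cldn8 (F 3.92, p 0.01998, adjusted p 0.2619), Scnn1g (F 3.47, p 0.03095, adjusted p 0.2987) and Sgk1 (F 3.20, p 0.04038, adjusted p 0.3215, all limma). After 7 days 0 of the 7 genes differed from 2 days, against 3.27% of all genes. After 14 days Cldn8 was lower by -2.85 ± 0.92 (p 0.00468, adjusted p 0.1895 in limma), Scnn1b higher by 0.90 and Sgk1 higher by 1.05, 3 genes against 9.64% of all. With scan day as a block neither Scnn1b (0.87, limma p 0.07602) nor Sgk1 (0.97, p 0.0902) was called. When no filter was applied, which averages the long-transcript probe into Sgk1, its difference was 0.48 and was not called (limma p 0.1114), and when only the arrays of both groups were fitted it was not called either (p 0.1315). Without the arrays with low posterior Hox genes Sgk1 differed by 0.07, and without both sets Cldn8 differed by 0.16. Without the 6 arrays with squamous or acinar markers Sgk1 differed by 0.98 and was not called (limma p 0.1087, 8.67% of all genes called), while Cldn8 and Scnn1b were. Of single arrays, CRC + E171 14 days female 1 moved Sgk1 most, to 0.50 without it, and Sgk1 was called in 17 and Scnn1b in 25 of the 31 fits without 1 array. Over the days, the F of Cldn8 was not called without CRC + E171 14 days female 1 (2.13) or male 2 (2.34), and that of Scnn1g not without CRC + E171 21 days female 1 (2.04) or male 2 (2.87) or CRC + E171 14 days male 2 (2.89) or female 2 (2.90). The F of Sgk1 was not called without 7 of the 16 CRC + E171 arrays taken singly, with values of 2.22 to 2.98. The F of Scnn1g was 1.36 and that of Sgk1 1.72 without the 6 arrays with squamous or acinar markers, and neither was called.

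After 21 days of CRC + E171, Sgk1 was 1.46 ± 0.50 (SE) higher than after 2 days, 2.76-fold, with a limma p of 0.007514 and an adjusted p of 0.2243. It was 1 called gene of the 7, against 7.39% of all genes. The values were 4.19, 4.80, 4.60 and 3.95 after 21 days and 2.34, 3.28, 3.38 and 2.70 after 2 days. In CRC, Sgk1 was at 4.19, 4.06 and 3.29 after 21 days and at 2.98, 3.38, 3.26 and 3.04 after 2 days. The difference was 0.68 ± 0.54 and was not called (limma p 0.2196). The moderated F for a change of the E171 difference over all days was 0.77 for Sgk1 (limma p 0.521, adjusted p 0.8328). It was not called, so that a rise specific to CRC + E171 was not shown. In 3 of 19 alternative settings that F was called, with values of 0.34 to 4.02 over the settings. Leaving out any single array kept the call between 21 and 2 days in CRC + E171, with differences of 1.27 to 1.62. With no filter the difference was 0.75 and still called. Without both sets, none of whose arrays is of 2 or 21 days, the difference of Sgk1 was again 1.46 and its limma p fell to 0.0002703 (adjusted p 0.03876), and Cldn8 was lower by -1.29 (p 0.0003176, adjusted p 0.04051). In that fit 5 of the 7 genes were called, against 10.2% of all genes. The arrays with squamous or acinar markers include both females of 21 days and female 2 of 2 days in CRC + E171. Without the 6 such arrays Sgk1 differed by 1.39 ± 0.69 (limma p 0.05861, adjusted p 0.8196), and 0 of the 7 genes were called, against 4.77% of all genes. Without all 12 arrays that stand apart it was 1.39 ± 0.48 and called (p 0.01148, adjusted p 0.293), with Scnn1b (1.09) and Cldn8 (-1.55), against 8.62% of all genes. The part of these tissues in the difference between days was not tested.

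Scnn1g was high after 21 days in both exposures. It lay at 0.83, 0.57 and 0.05 in CRC and at -0.14, 2.53, 0.42 and 0.07 in CRC + E171, against -2.62 to -1.78 and -4.23 to -0.31 after 2 days. The difference was 2.70 ± 1.47 in CRC (limma p 0.07782) and 2.68 ± 1.36 in CRC + E171 (limma p 0.05972), and neither was called. Without the neutrophil-rich arrays both were, with the same differences and limma p-values of 0.02532 (adjusted p 0.4592) and 0.01732 (adjusted p 0.1734). In CRC 5.82% of all genes were called in that fit, and the share in CRC + E171 is not given here. Without the 6 arrays with squamous or acinar markers, which include CRC + E171 21 days female 1, the highest, the differences were 2.66 in CRC (limma p 0.1795) and 1.90 in CRC + E171 (p 0.331). Over all earlier days the 24 arrays ranged from -7.09 to 1.46. Without both sets of arrays that stand apart, the F over the days of CRC was 4.93 for Scnn1g (p 0.01044, adjusted p 0.3956 in limma) and 4.05 for Sgk1 (p 0.02175, adjusted p 0.4627), both then called.

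The median of 8 clock genes, Per1 and Dbp among them, was -0.24 to 0.63 on the 7 arrays of 21 days and -2.74 to 0.31 on the 24 earlier arrays. The median of the clock genes of the opposite phase, of which 4 were measured, was -3.44 to -2.78 after 21 days and -2.78 to -0.52 before. The ranges of the former overlapped and those of the latter met at -2.78. The earlier array at that value was CRC 14 days male 2, the array with Xist at a female level. The next earlier array, CRC + E171 2 days male 2, was at -2.69. Sgk1 lay at 3.29 to 4.80 on the 7 arrays of 21 days, within the 2.34 to 5.64 of the others. The hour at which mice were sampled is not given in the sources used here, and the part of time of day in the difference between days was not tested.

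**Figure D4:**
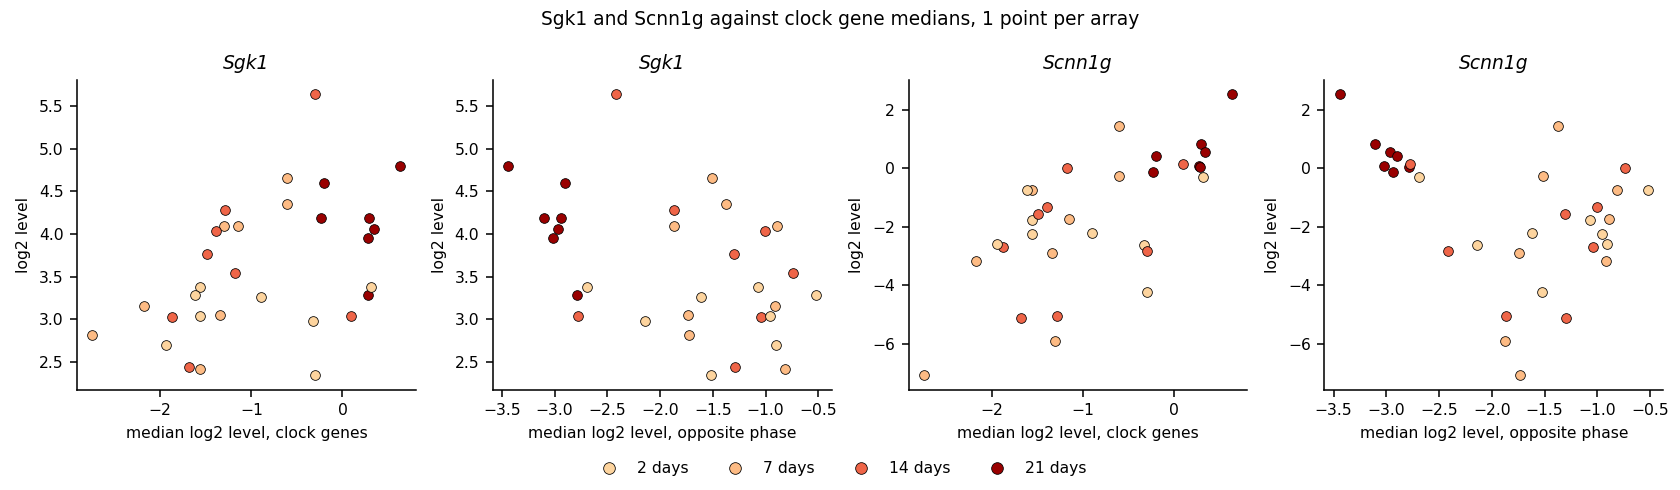
Levels of Sgk1 and Scnn1g (y axes, log2 over the array's 75th percentile) against the median level of clock genes and of clock genes of the opposite phase on the same array (x axes, log2), with 1 point per array and the days in colours. The 7 arrays of 21 days lie at clock medians of -0.24 to 0.63 and at opposite-phase medians of -3.44 to -2.78.

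Sex was compared with the 8 groups as terms, over 15 arrays labelled male and 16 labelled female. Males and females lay in separate rows of the slides, so that sex and slide row cannot be told apart. In limma 2 of the 7 genes were lower in males, against 2.98% of all genes called and 0.0556% (11 genes) at an adjusted p under 0.05: Sgk1 by -0.73 ± 0.22 (p 0.002628, adjusted p 0.2712) and Hsd11b2 by -1.13 ± 0.50 (p 0.03439, adjusted p 0.5276). Sgk1 had a lowest, median and highest value of 2.34, 3.05 and 4.60 in males and 2.70, 4.05 and 5.64 in females, and the female mean was higher in 6 of 8 groups. Hsd11b2 was at -5.60, 0.20 and 1.14 in males and at -0.59, 0.44 and 1.32 in females, with the female mean higher in 8 of 8 groups. Within the 3 scan days the difference was -1.04, -0.70 and -0.37 for Sgk1 and -0.95, -1.62 and -0.40 for Hsd11b2.

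The labelled sexes include CRC 14 days male 2, the array with Xist at -1.60. Without it the differences were -0.72 for Sgk1 (limma p 0.004084) and -1.15 for Hsd11b2 (p 0.03784), and both stayed called. The 3 neutrophil-rich arrays were all male. Without them Sgk1 differed by -0.47 and Hsd11b2 by -0.06, and 0 of the 7 genes were called, while Nr3c2 was higher in males by 0.29, under the fold threshold (limma p 0.02286, adjusted p 0.3217). Without both sets the differences were -0.30 for Sgk1, -0.29 for Hsd11b2 and 0.40 for Nr3c2 (limma p 0.004301, adjusted p 0.186). Hsd11b2 was also not called when any one of the 4 arrays of CRC 7 days (-0.86 to -0.90), CRC + E171 14 days male 2 (-0.94) or CRC + E171 7 days male 2 (-1.08) was left out. Sgk1 stayed called, at -0.92 (limma p 0.001828), without the 6 arrays with squamous or acinar markers, 5 of them female, and Hsd11b2, at -1.1, was not (p 0.07558), against 3.45% of all genes.

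Other genes of the pathway were taken from 5 lists, all of whose genes were tested. Of 13 regulators of the channel, after 7 days of E171, Cnksr3 (0.74) and St14 (1.10) were up-regulated and Serpine2 (-2.23) was down-regulated. Cnksr3 is a scaffold that aldosterone induces, St14 a membrane protease that acts on the channel, and Serpine2 an inhibitor of such proteases. After 14 days Usp10, a deubiquitinase, was up-regulated by 0.60, 1 of the 13 genes against 6.34% of all genes. After 2 and 21 days 0 of the 13 were called, against 1.72% and 2.67% of all genes. Of 8 steroid receptors, kinases and hormone-induced genes, 3 were down-regulated after 7 days, namely Hsd11b1 (-0.93), which regenerates glucocorticoids, Per1 (-0.84) and Tsc22d3 (-0.77), and 0 on the other days. The medians of the 2 lists after 7 days were 0.10 and -0.51, against -0.01 over all genes, of which 12.4% were called. Without the neutrophil-rich arrays 1 of the 13 (Cnksr3) and 2 of the 8 (Per1 and Tsc22d3) were called after 7 days, against 2.65% of all genes.

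The list named for electroneutral salt and water uptake, the other route by which the colon absorbs sodium chloride, also held genes that are not such transporters. It showed the most calls of the 5 lists after 7 days of E171, with 9 of 10 up-regulated and none down-regulated, against 12.4% of all genes, and a median of 2.73. The calls included the sodium-proton exchangers Slc9a2 (2.70) and Slc9a3 (2.76), the chloride-bicarbonate exchanger Slc26a3 (3.18), the carbonic anhydrase Car1 (4.16) and the water channel Aqp8 (3.78). The remaining calls were Guca2a (3.38), Guca2b (1.60), Slc26a2 (1.81) and Slc4a4 (1.46). Guca2a, Guca2b and Slc4a4 do not encode electroneutral uptake transporters, so that the 9 calls are not a count of that route. In CRC, 8 of the 10 were lower after 7 than after 2 days, with a median of -2.72, against 13.4% of all genes. Without the neutrophil-rich arrays 0 of the 10 were called in either comparison, with medians of -0.06 and 0.06, against 2.65% and 2.3% of all genes. Slc26a3, Car1, Car4, Aqp8 and Slc9a3 are also among the surface colonocyte markers, which were at -3.74 and -2.25 on the control males of that day. The list had 0 of 10 called after 2, 14 and 21 days, against 1.72%, 6.34% and 2.67% of all genes. After 14 days 4 of the 10 were called as up-regulated without the neutrophil-rich arrays, against 14.1% of all genes.

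Of 10 genes of the sodium pump and of potassium or proton transport, Atp1b1 (1.2) was up-regulated and Atp1b3 (-0.76) down-regulated after 7 days of E171, both subunits of the pump that carries sodium out of the cell. After 14 days Atp12a, the colonic proton-potassium pump, was down-regulated by -3.43 ± 1.52 (limma p 0.03277, adjusted p 0.5897). It lay at 3.19, -4.42, -0.09 and -4.46 in CRC + E171 and at 1.28, 2.17, 2.34 and 2.14 in CRC. The lowest 2 of these values were on the females with low posterior Hox genes, and the array with low Hox genes of 7 days had Atp12a at -4.25. Of 8 other claudins, Cldn3 (1.55), Cldn7 (1.29) and Cldn23 (1.54) were up-regulated after 7 days and 0 on the other days. The 2 of 10 and 3 of 8 genes called after 7 days stand against 12.4% of all genes, and the 1 of 10 after 14 days against 6.34%. After 2 and 21 days 0 genes of both lists were called, against 1.72% and 2.67% of all genes. Without the neutrophil-rich arrays 0 of these 10 and 0 of these 8 genes were called after 7 days, against 2.65% of all genes.

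Between 21 and 2 days, 1 of the 13 regulators of the channel, the deubiquitinase Usp2, and 2 of the 8 steroid-related genes, Fkbp5 and Zbtb16, were called as higher after 21 days in each exposure, against 3.59% of all genes in CRC and 7.39% in CRC + E171. The medians of the 2 lists were -0.03 and 0.14 in CRC, against -0.02 over all genes, and -0.11 and 0.22 in CRC + E171, against -0.08. Usp2 was higher by 1.28 in CRC (limma p 0.03795) and 1.78 in CRC + E171 (p 0.003087), Fkbp5 by 1.07 (p 0.02556) and 0.90 (p 0.03979), and Zbtb16 by 1.38 (p 0.003183) and 1.32 (p 0.002327). Usp2 lay at 1.15, 1.28, 1.09 and 0.67 after 21 days of CRC + E171 and at -0.61, -0.80, -0.67 and -0.83 after 2 days. Per1, which is both a clock gene and a target of steroid hormones, had the strongest F of these lists over the days of CRC + E171 (F 15.26, p 7.232e-06, adjusted p 0.07512 in limma). In the comparison of sexes, Sgk2 (-0.92), Kcnq1 (-0.65), Guca2b (-0.83), Cldn15 (-0.90) and Cldn2 (-0.81) were lower in males and Serpine2 (1.0) was higher, which was 1 gene called in each list and 2 of the 8 claudins, against 2.98% of all genes. None of the related genes had an adjusted p under 0.05 in any of these limma comparisons.

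The genes most alike in pattern to each member over the 31 arrays were found by Pearson's r, given as a description since the arrays share groups and sets that stand apart. Nr3c2 was most like Slc35g1, Kcnk5 and Slc9a2, each with r = 0.962, and Hsd11b2 most like Cyp2d34 (0.958). Scnn1a was most like Msi1 (0.926), Scnn1g like Rbp2 (0.870), Tmem132c (0.846) and Ttr (0.836), and Cldn8 like Abo (0.864). Sgk1 was most like Usp2 (0.772), and Scnn1b like Bsn (0.788), with the olfactory receptor genes Olfr229 (0.778) and Olfr170 (0.774) next. Over the 25 arrays in neither set, Nr3c2 was most like Abat (0.904) and Gmpr (0.876), with Slc35g1 next (0.851), whereas Sgk1 was most like Snx16 (0.786), with the clock gene Per2 among the next 4 (0.759), and Scnn1g was most like Plscr4 (0.882).

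Pairs of members were correlated over arrays. Since the 31 arrays fell into separate sets, r is given over the 25 arrays in neither set, and p-values from 100000 permutations were adjusted over the 21 pairs. Scnn1g and Sgk1 rose and fell together (r = 0.71, rho = 0.72, adjusted permutation p 0.00189), also without the 2 arrays farthest from the median (r = 0.58, permutation p 0.0039). Their r was 0.65 within CRC (13 arrays) and 0.75 within CRC + E171 (12 arrays), and 0.62, 0.92 and 0.23 within the 3 scan days of 10, 9 and 6 arrays. Scnn1b and Scnn1g (r = 0.56, adjusted permutation p 0.02716) and Scnn1b and Sgk1 (r = 0.52, adjusted permutation p 0.0368) were also positive, the latter with r = 0.38 without the 2 farthest arrays (permutation p 0.07811). Within the 3 scan days r was 0.43, 0.73 and -0.19 for Scnn1b and Scnn1g and 0.19, 0.77 and -0.51 for Scnn1b and Sgk1, so that neither relation held on scan day 3, where the sign turned. Cldn8 and Sgk1 were opposed (r = -0.56, rho = -0.60, adjusted permutation p 0.02716), with r of -0.79, -0.52 and -0.21 within the scan days. When the values of these 25 arrays were centred on their group, 0 of the 21 pairs were called, and these 4 pairs had r of 0.34, 0.12, 0.04 and -0.03, so that the correlations were not shown within groups over the 25 arrays. Over all 31 arrays, which include the sets that stand apart, 13 of the 21 centred pairs were called, Scnn1b and Scnn1g among them (r = 0.40, adjusted permutation p 0.04928).

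**Figure D5:**
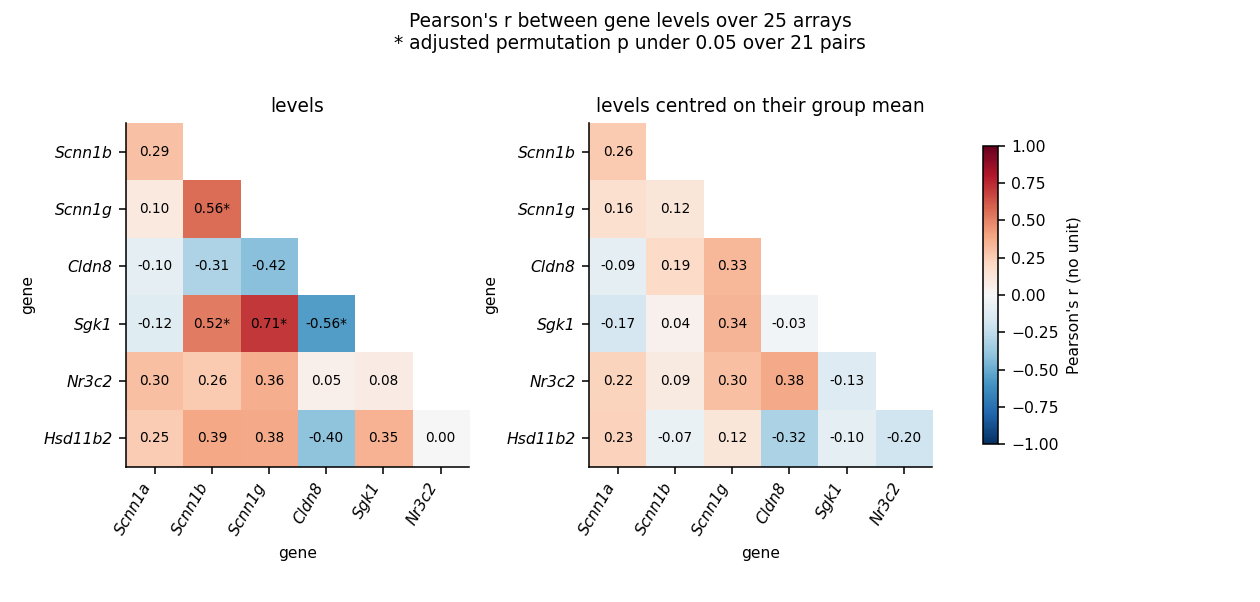
Pearson's r between the levels of the 7 genes over the 25 arrays in neither set of arrays that stand apart (both axes, genes; colour, r from -1 to 1), for values as measured and for values centred on their group. Of the 21 pairs, 4 carry a star for an adjusted permutation p under 0.05 as measured, led by Scnn1g and Sgk1 at 0.71, and none does after centring.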

How the data were processed

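The deposited files hold, per the file headers, the processed signal intensity of 1-colour Agilent arrays, read by Feature Extraction 10.7.3.1. The authors also deposited a table of normalized log2 values, each column of which was most like its own array (31 of 31, lowest Spearman 0.994). Levels were set here by taking log2 of that intensity and subtracting each array's 75th percentile, which moves all genes of an array together. Control spots were left out, spots of a probe were averaged, and a probe was kept where 60% of the arrays of a group were well above background and the group mean log2 signal was at least 4, which left 42787 of 56605 probes. Kept probes of a gene were averaged, and genes were named by accession or symbol through RefSeq. The 75th percentile signal was 1717 to 6536 per array.

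A single limma 3.58.1 fit (R 4.3.3) with empirical Bayes over the 8 groups gave contrasts, p-values and Benjamini-Hochberg adjusted p-values over 19797 genes. The fit was also run on simulated data, as a check of the code and not of these results. Alternatives were quantile and normexp values, the authors' log2 values, other filters and probe rules, sex, slide, scan day, array weights and each array left out. Groups, sexes and days came from the labels. All 7 members were named in every comparison, and genes of the related lists where they were called. Members, lists and markers were chosen with earlier results of these data known.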

Additional observations from a re-analysis of the deposited data

Results flagged for a closer look

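Of 49 groups of 4 arrays examined over the 7 genes, 5 held an array far from the other 3, where chance gives about 1 in 20. Scnn1a was at 1.73 on CRC 2 days male 1, against 1.43 to 1.46 on the other arrays of the group. Scnn1b was at -3.24 on CRC + E171 21 days male 2, against -4.44 to -4.36, and at -4.99 on CRC 14 days female 1, against -4.75 to -4.73. Nr3c2 was at -2.60 on CRC + E171 14 days male 2, a neutrophil-rich array, against -0.02 to 0.39, and at 0.08 on CRC 14 days male 2, the array with Xist at a female level, against -0.85 to -0.75. The E171 difference of Cldn8 differed between days (limma F 4.3, p 0.01405, adjusted p 0.717), from 2.15 after 7 days to -2.46 after 14 days, and was not called without the neutrophil-rich arrays (F 2.23, limma p 0.1129).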

How the results depend on the processing

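The share of all genes called in each fit is given in brackets. Of the members called after 7 days of E171 (3), the count was 0 when only the arrays of the groups compared were fitted (4.78%), with array weights (3.44%), and at an adjusted p under 0.05 (0%). It was 3 without the neutrophil-rich arrays (2.65%), but these were Scnn1g, Scnn1b and Sgk1, all down-regulated, 4 without both sets (2.77%; Cldn8, Scnn1b, Scnn1g and Sgk1), and 2 without all 12 arrays that stand apart (6.23%; Scnn1b and Scnn1g). After 14 days (2), the count was 1 in the fit of only these groups (7.32%), with scan day as a block (5.47%), without the low posterior Hox arrays (3.09%), without both sets (9.9%), without the 6 arrays with squamous or acinar markers (6.45%), without all 12 (12.2%) and without the array with female-like Xist (5.91%), 4 without the neutrophil-rich arrays (14.1%), and 0 at the adjusted p (0%). Averaged over days (0), it was 1 without the Xist array (2.3%) or the 6 (2.89%). For days within CRC (1), it was 0 with only these groups (7.43%), scan day as a block (7.92%) or the adjusted p (0%), 2 with normexp (10.5%), with sex as a covariate (10.6%) or with trend and robust empirical Bayes (10.3%), 3 with the authors' values (9.61%) or without the 6 (15.7%), and 4 with array weights (22.2%), without both sets (8.96%) or without all 12 (10.1%). For days within CRC + E171 (3), it was 0 at the adjusted p (0%) and 1 without the low posterior Hox arrays (11.7%) or the 6 (7.35%). For E171 between days (1), it was 0 at the adjusted p (0%), 2 without the neutrophil-rich arrays (10.6%) or the 6 (10.2%), and 3 with array weights (18.6%) or without both sets (9.59%). For sex (2), it was 1 with no filter (3.31%), array weights (2.28%) or without the low posterior Hox arrays (3.57%) or the 6 (3.45%), and 0 at the adjusted p (0.0556%), without the neutrophil-rich arrays (2.93%), without both sets (3.79%) and without all 12 (5.97%). Of 21 pairs of members over the 31 arrays, 9 correlated. The count was 13 with values centred on their group, 12 within CRC, 1 within CRC + E171, 12 without the low posterior Hox arrays, 5 without the neutrophil-rich arrays, 4 without both sets, 10 without the Xist array and 8 without the 2 arrays farthest from the median.

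Some directions turned, and the cause was not tested. With array weights these were Scnn1a (-0.06) and Hsd11b2 (-0.03) after 7 days of E171 and Nr3c2 by sex (0.09). Without the neutrophil-rich arrays they were Scnn1a (-0.33) and Hsd11b2 (-0.84) after 7 days of E171, Hsd11b2 averaged (-0.29), Nr3c2 (0.16) and Hsd11b2 (0.51) between 7 and 2 days of CRC, and by sex Scnn1a (0.22), Scnn1g (0.45), Cldn8 (0.68) and Nr3c2 (0.29). Without the low posterior Hox arrays they were, after 14 days of E171, Scnn1a (0.03), Sgk1 (-0.48) and Nr3c2 (-0.71), and Sgk1 averaged (-0.17). Without both sets they were Scnn1a (-0.19) and Hsd11b2 (-0.74) after 7 days, Scnn1a (0.31), Scnn1g (1.38), Cldn8 (0.55) and Hsd11b2 (0.77) after 14 days, Sgk1 averaged (-0.23), Nr3c2 (0.16) and Hsd11b2 (0.51) between 7 and 2 days of CRC, Cldn8 (0.16) between 14 and 2 days of CRC + E171, and Nr3c2 by sex (0.40). Without all 12 they were Scnn1a (-0.24) and Hsd11b2 (-0.59) after 7 days, the same 4 genes at the same values after 14 days, Scnn1b (-0.12) and Sgk1 (-0.13) averaged, Scnn1a (0.02), Nr3c2 (0.19) and Hsd11b2 (0.28) between 7 and 2 days of CRC, Cldn8 (0.02) between 14 and 2 days of CRC + E171, and by sex Scnn1a (0.17), Scnn1b (0.21) and Nr3c2 (0.45).

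Leaving out each array in turn, the members called ranged from 0 to 0 after 2 days, 1 to 4 after 7 days, 1 to 2 after 14 days, 0 to 0 after 21 days, 0 to 1 averaged, 0 to 4 for days within CRC, 1 to 5 for days within CRC + E171, 1 to 3 between days and 1 to 2 for sex. The share of all genes called in each of these fits is not given here, so that these counts cannot be set against it. Scnn1a after 7 days ranged from -0.02 (without CRC 7 days male 2) to 0.89, and Sgk1 after 14 days from -0.05 (without CRC + E171 14 days female 1) to 1.02.

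Deviations from the group means had r of -0.41 to 0.62 between arrays of the same sex and number in different groups (105 pairs, median 0.057). Other pairs of arrays had r of -0.63 to 0.53 (315 pairs, median -0.023). These ranges overlap widely and do not decide whether the numbers pair the samples. Arrays of different number also lay on different slides, so that number and slide go together. With sex and number as a replicate block, 3 members were called after 7 days and 2 after 14 days, and the genes called were 2541 in place of 2455 and 1521 in place of 1256.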
